A study of Mus musculus with 28 samples.

Results

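Fatty acid synthesis in mouse liver was followed through 10 genes, Acly, Me1, Acaca, Fasn, Elovl6, Scd1, Gpam, Pnpla3, Srebf1 and Thrsp, out of 20299 genes measured on the same arrays. The genes were chosen by name, with earlier results of these data known, and all probes whose transcript accession maps to one of these names were taken. There were 15 such probes among 41174, and all 15, and so all 10 genes, passed the filter on dim probes.

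The liver builds fatty acids from glucose carbon after feeding. Citrate is split into acetyl-CoA, acetyl-CoA is carboxylated to malonyl-CoA, and fatty acid synthase joins these units into palmitate with reducing power from NADPH. Palmitate is then lengthened, desaturated and esterified to glycerol. Insulin raises this programme through the transcription factor SREBP1c, and glucose raises it through ChREBP.

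All 7 groups carry a deletion of Fah, the last enzyme of tyrosine breakdown, whose loss lets toxic intermediates injure hepatocytes. NTBC is a drug that blocks an earlier step and protects these mice. Of the groups, Fah-/- p21-/- mice were measured with no NTBC alone. Fah-/- p53-/- mice and mice with the Fah deletion alone, called Fah-/- below, were measured with no, reduced and full NTBC. The p53 gene encodes a DNA damage response factor and p21 an inhibitor of the cell cycle that p53 induces. Each group had 4 liver samples, 1 per array. Full dose was 7.5 mg/L in drinking water. The reduced dose is 25% of it in the sample labels and 2.5%, for 3 months, in the treatment protocol and design text, so it is called reduced here. The labels give no age and no time without the drug, and do not say that the 4 samples came from separate animals, so p-values measure the spread between these samples, which may be technical.

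Expression is given as a log2 level, the log2 of the processed probe intensity minus the log2 of that array's 75th percentile. The 75th percentile lay between 260 and 602 intensity units, and 54.8% to 68.5% of probes were well above background. By the scan dates in the file headers, each dose was scanned in a calendar year of its own. Dose therefore cannot be told apart from scan date. With no NTBC, Fah-/- and Fah-/- p21-/- replicates 3 and 4 shared a slide and were scanned on a later day. All Fah-/- p53-/- samples with no NTBC were scanned on the earlier day, so genotype is not balanced over scan days there. On full and on reduced NTBC each genotype lay on a slide of its own, so genotype cannot be told apart from slide there, nor where the genotypes' changes with dose are compared. By Xist and Ddx3y, 2 of the 4 Fah-/- p21-/- samples and all 4 Fah-/- p53-/- samples with no NTBC were female, and the rest were male. The female p21-/- samples were replicates 1 and 2, on another slide than the male ones. Within that group sex cannot be told apart from slide. Of the 2 Trp53 probes, 1 read -3.31 to -1.99 in p53-/- livers, against -1.50 to -0.08 in livers of the other groups, with no overlap, and the other read 0.41 to 1.43 in p53-/- livers, against 0.51 to 1.5. The Cdkn1a (p21) probe was well above background in p21-/- livers (3.04 to 3.53, against 4.11 to 4.37 in Fah-/- livers with no NTBC). The Fah probe was well above background on 4 of 4 arrays of all 7 groups, with group means of -3.11 to -0.11. The labels do not give the deleted parts, and a probe outside them checks nothing. Fah-/- p53-/- replicate 1 and Fah-/- p21-/- replicates 1 and 2, all with no NTBC, lay farthest from their groups over all genes.

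Without NTBC, most of the pathway fell in both genotypes that could be compared with the full dose. In Fah-/- p53-/- livers 8 of the 10 genes fell and Me1 rose. In Fah-/- livers the same count held: 8 fell and Me1 rose. Scd1, the stearoyl-CoA desaturase, and Thrsp, a nuclear protein of lipogenic tissue, were among the largest falls of all genes on the array. Pnpla3 did not pass in either genotype. For a gene to pass, its adjusted p from the limma fit over all 20299 genes had to be under 0.05. Of all genes, 69.6% passed in Fah-/- p53-/- livers (40.0% lower, 29.6% higher) and 70.7% passed in Fah-/- livers (41.7% lower, 29.0% higher), so passing was common. The median log2 fold change of the 10 genes was -2.48 in Fah-/- p53-/- livers and -1.89 in Fah-/- livers. Over all genes it was -0.14 in Fah-/- p53-/- livers and -0.17 in Fah-/- livers, so relative to all genes the shift was -2.34 in Fah-/- p53-/- livers and -1.71 in Fah-/- livers. In the p53-/- genotype the no-NTBC samples were female and the full-dose samples male, so dose and sex cannot be told apart there. A fit with sex as a term, which can take the effect of sex from the p21-/- samples alone, called 8 falls in each genotype. Over all genes that fit called 54.2% in Fah-/- p53-/- livers and 71.1% in Fah-/- livers. Female and male p21-/- samples lay on different slides, so that term cannot tell sex from slide.

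**Figure D1:**
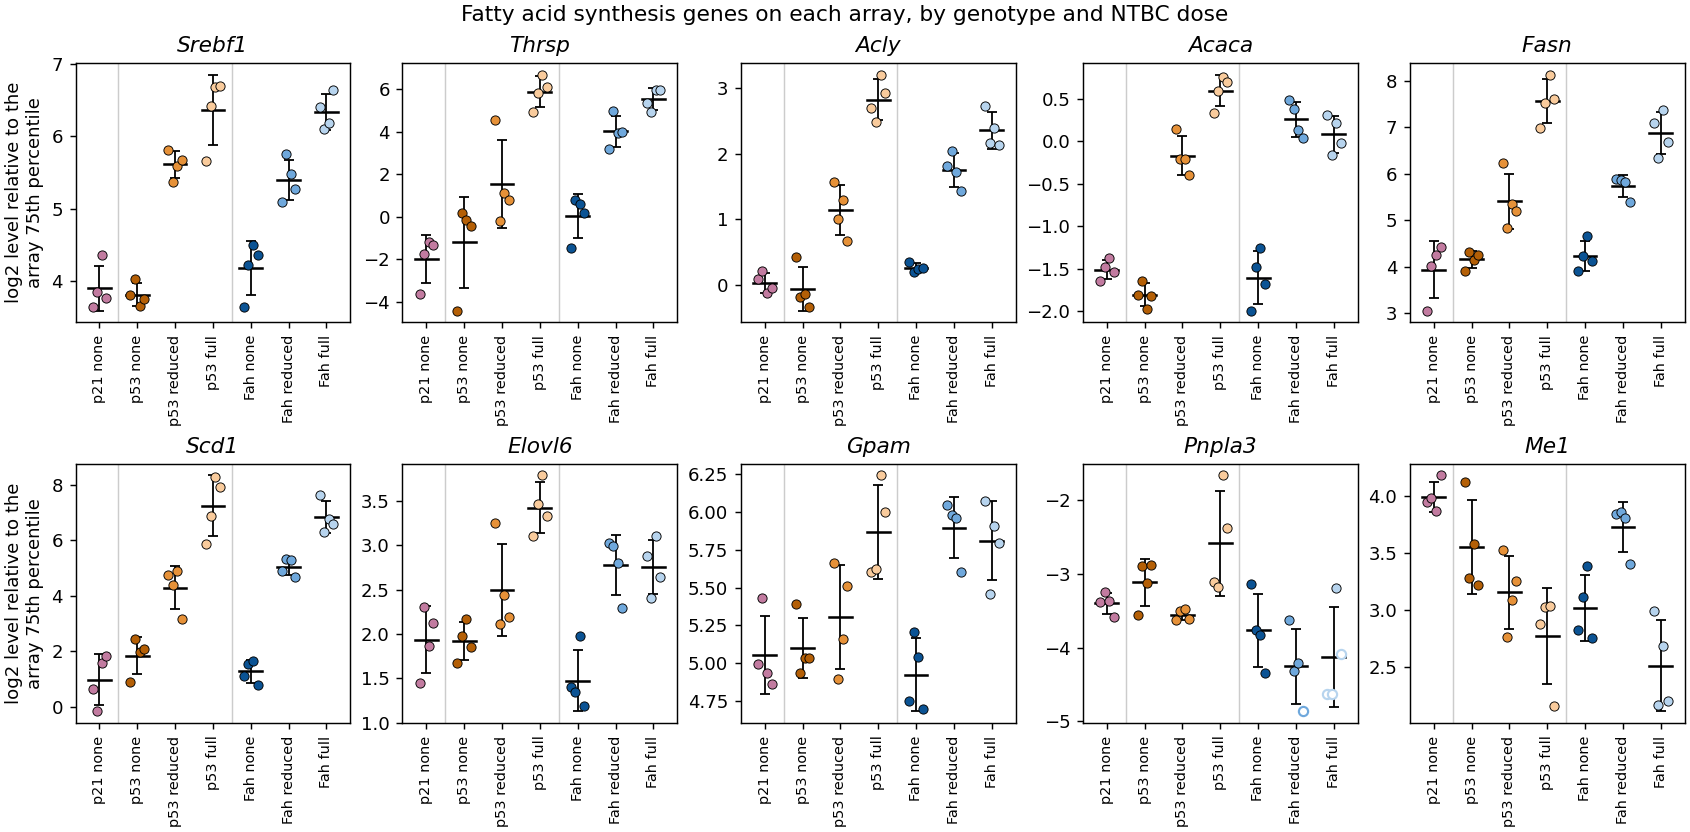
Log2 level of each of the 10 genes on the 28 arrays (vertical axis, relative to the array's 75th percentile), with groups in columns. Points are samples, bars the group mean and SD (n = 4), open points arrays where the probe was not well above background. Scd1 and Thrsp span the widest ranges across groups, and Me1 and Pnpla3 do not follow the other 8.

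Srebf1 encodes SREBP1, the transcription factor through which insulin raises lipogenic genes. Its log2 levels were 3.81, 4.03, 3.65 and 3.75 in Fah-/- p53-/- livers with no NTBC, against 5.66, 6.41, 6.68 and 6.70 on full NTBC. The Fah-/- levels were 3.65, 4.22, 4.50 and 4.36 with no NTBC and 6.41, 6.10, 6.18 and 6.65 on full NTBC. Within each genotype the samples of the 2 doses were separate. The log2 fold change was -2.55 ± 0.21 (SE), adjusted p = 2.85e-10, in Fah-/- p53-/- livers and -2.15 ± 0.21 (SE), adjusted p = 5.05e-09, in Fah-/- livers, a level 5.87 and 4.45 times lower.

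Thrsp encodes a small protein, known as Spot 14, that rises with thyroid hormone and carbohydrate feeding and supports fatty acid synthesis. Its log2 levels were -4.41, 0.19, -0.16 and -0.46 in Fah-/- p53-/- livers with no NTBC, against 4.94, 5.80, 6.67 and 6.10 on full NTBC. Those in Fah-/- livers were -1.45, 0.79, 0.61 and 0.19 with no NTBC, against 5.32, 4.92, 5.96 and 5.97 on full NTBC. The doses did not overlap, but 1 sample of each no-NTBC group lay well below its others. The fall was -7.08 ± 0.90 (SE), adjusted p = 2.34e-07, in Fah-/- p53-/- livers and -5.51 ± 0.90 (SE), adjusted p = 8.77e-06, in Fah-/- livers, 136 and 45.5 times lower. Thrsp ranked 21 among the falls of 20299 genes in Fah-/- p53-/- livers and 51 in Fah-/- livers.

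Acly cleaves citrate to acetyl-CoA, the carbon source of the pathway. With no NTBC it read 0.42, -0.18, -0.14 and -0.34 in Fah-/- p53-/- livers and 0.35, 0.20, 0.24 and 0.26 in Fah-/- livers. On full NTBC it read 2.69, 2.48, 3.20 and 2.92 in Fah-/- p53-/- livers and 2.73, 2.16, 2.40 and 2.13 in Fah-/- livers. The doses were far apart in both genotypes, with falls of -2.88 ± 0.19 (SE), adjusted p = 5.18e-12, in Fah-/- p53-/- livers and -2.09 ± 0.19 (SE), adjusted p = 1.17e-09, in Fah-/- livers.

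Acaca encodes acetyl-CoA carboxylase 1, which makes malonyl-CoA and sets the pace of the pathway. It read -1.81, -1.64, -1.97 and -1.82 in Fah-/- p53-/- livers with no NTBC and 0.33, 0.59, 0.75 and 0.70 on full NTBC. Fah-/- livers read -1.99, -1.49, -1.26 and -1.68 with no NTBC and 0.30, -0.17, 0.21 and -0.03 on full NTBC. No sample of one dose reached those of the other. The log2 fold change was -2.40 ± 0.15 (SE), adjusted p = 1.85e-12, in Fah-/- p53-/- livers and -1.69 ± 0.15 (SE), adjusted p = 7.14e-10, in Fah-/- livers.

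Fasn encodes fatty acid synthase, which assembles palmitate. Its levels were 3.91, 4.32, 4.15 and 4.26 in Fah-/- p53-/- livers with no NTBC, against 7.0, 7.52, 8.13 and 7.62 on full NTBC. Corresponding Fah-/- levels were 3.91, 4.23, 4.67 and 4.12 with no NTBC, against 7.10, 6.34, 7.37 and 6.69 on full NTBC. The doses were separate, and the log2 fold change was -3.40 ± 0.30 (SE), adjusted p = 5.24e-10, in Fah-/- p53-/- livers (10.6 times lower) and -2.64 ± 0.30 (SE), adjusted p = 3.45e-08, in Fah-/- livers (6.25 times lower).

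Scd1 puts the double bond into palmitate and stearate. It read 0.89, 2.47, 1.97 and 2.09 in Fah-/- p53-/- livers with no NTBC, against 5.87, 6.87, 8.28 and 7.93 on full NTBC. In Fah-/- livers it read 1.13, 1.54, 1.67 and 0.79 with no NTBC, against 7.64, 6.31, 6.78 and 6.57 on full NTBC. The gap between doses exceeded the whole spread within each of these groups. The fall was -5.38 ± 0.49 (SE), adjusted p = 1.05e-09, in Fah-/- p53-/- livers and -5.54 ± 0.49 (SE), adjusted p = 7.14e-10, in Fah-/- livers, 41.8 and 46.6 times lower. Scd1 ranked 48 among the falls of all genes in each genotype.

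Elovl6 lengthens palmitate to stearate. It read 1.67 to 2.17 in Fah-/- p53-/- livers with no NTBC, against 3.1 to 3.79 on full NTBC, and 1.19 to 1.98 in Fah-/- livers with no NTBC, against 2.40 to 3.11 on full NTBC. Both pairs were separate, with log2 fold changes of -1.50 ± 0.24 (SE), adjusted p = 6.77e-06, in Fah-/- p53-/- livers and -1.28 ± 0.24 (SE), adjusted p = 5.19e-05, in Fah-/- livers.

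Gpam encodes the mitochondrial acyltransferase that starts triglyceride synthesis. Its brighter probe read 4.94 to 5.39 in Fah-/- p53-/- livers with no NTBC, against 5.6 to 6.24 on full NTBC, and 4.70 to 5.21 in Fah-/- livers with no NTBC, against 5.45 to 6.07 on full NTBC. The doses were separate, but the falls were the smallest of the 8, -0.76 ± 0.18 (SE), adjusted p = 0.000743, in Fah-/- p53-/- livers and -0.88 ± 0.18 (SE), adjusted p = 0.00017, in Fah-/- livers. They did not pass under 5 alternatives, among them quantile normalization (-0.19 in Fah-/- livers, adjusted p = 0.33) and the mean of both Gpam probes (-0.15, adjusted p = 0.556).

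Pnpla3, a lipid droplet protein with lipase-like sequence, was dim. Its probe passed the background mark on 4 of 4 arrays of each Fah-/- p53-/- and Fah-/- p21-/- group, on 4 Fah-/- arrays with no NTBC, on 3 with reduced and on 1 with full NTBC. It read -3.56 to -2.88 in Fah-/- p53-/- livers with no NTBC, against -3.18 to -1.67 on full NTBC, and -4.35 to -3.13 in Fah-/- livers with no NTBC, against -4.63 to -3.19 on full NTBC. Samples of the doses overlapped in both genotypes. The difference was -0.53 ± 0.32 (SE), adjusted p = 0.149, in Fah-/- p53-/- livers, with a 95% interval of -1.20 to 0.14, and 0.36 ± 0.32 (SE), adjusted p = 0.32, in Fah-/- livers, with an interval of -0.30 to 1.03.

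Me1, the malic enzyme that supplies cytosolic NADPH, went the other way. With no NTBC it read 4.13, 3.28, 3.58 and 3.22 in Fah-/- p53-/- livers and 2.83, 3.11, 3.38 and 2.75 in Fah-/- livers. On full NTBC it read 2.88, 3.03, 3.04 and 2.16 in Fah-/- p53-/- livers and 2.99, 2.17, 2.68 and 2.20 in Fah-/- livers. The doses were separate in Fah-/- p53-/- livers and overlapped in Fah-/- livers. The rise was 0.78 ± 0.23 (SE), adjusted p = 0.00387, in Fah-/- p53-/- livers and 0.51 ± 0.23 (SE), adjusted p = 0.0476, in Fah-/- livers. The Fah-/- call did not pass in the fit to the groups compared alone or with any of 4 particular samples left out, and neither call passed with sex as a term (adjusted p = 0.0802 in Fah-/- p53-/- livers and 0.0523 in Fah-/- livers).

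**Figure D2:**
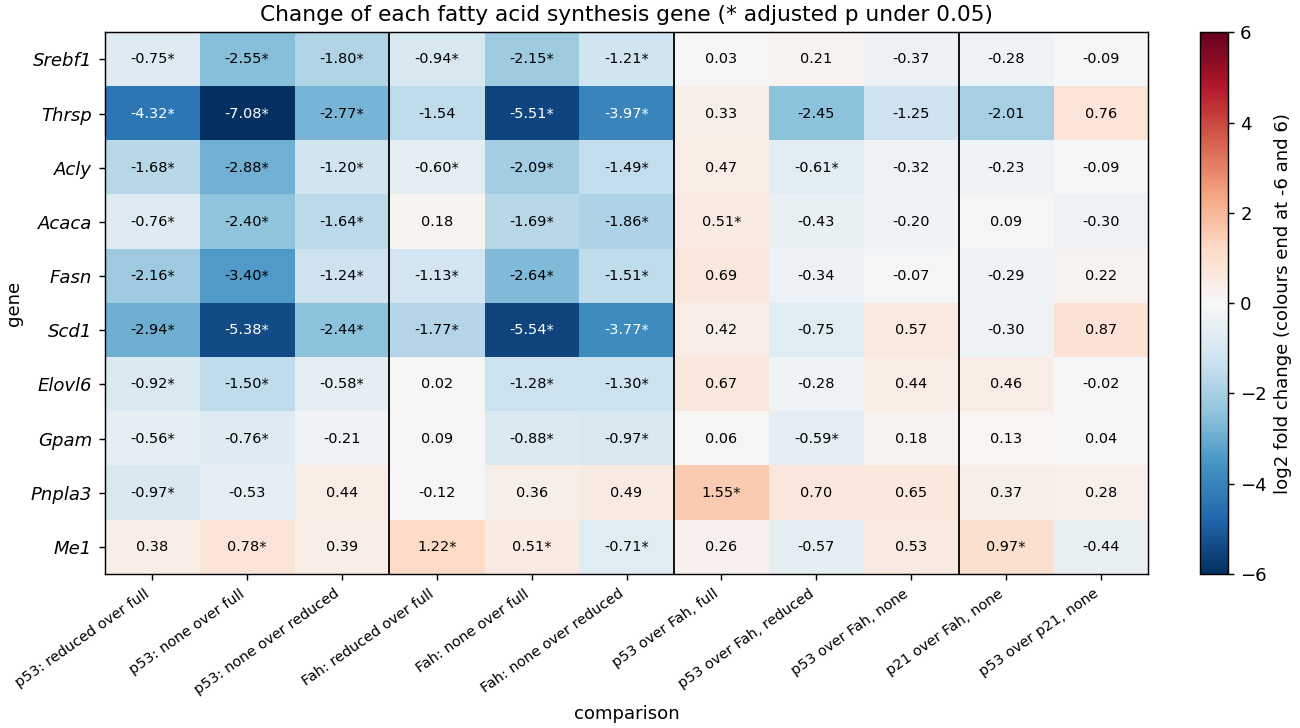
Log2 fold change of the 10 genes (rows) in 11 comparisons (columns), each over its own denominator, with the value in each cell and an asterisk where the adjusted p was under 0.05. Blue cells, lower, fill the 6 columns on dose for the genes from Srebf1 to Elovl6, apart from Acaca and Elovl6 at reduced NTBC in Fah-/- livers, while the 5 columns on genotype hold 5 calls in all.

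The promoters of Fasn and Thrsp, whose genes fell together, and of Me1, which did not, are shown for comparison. Each run is the 300 bases from 250 before to 50 after the transcript start in RefSeq for build GRCm38.p6, read 5′ to 3′ along the gene, which lies on the minus strand in all 3 cases. Capitals mark CCAAT boxes on either strand in Fasn (chr11:120824498-120824797) and Thrsp (chr7:97417501-97417800), and the antioxidant response core in Me1 (chr9:86695865-86696164).
Fasn: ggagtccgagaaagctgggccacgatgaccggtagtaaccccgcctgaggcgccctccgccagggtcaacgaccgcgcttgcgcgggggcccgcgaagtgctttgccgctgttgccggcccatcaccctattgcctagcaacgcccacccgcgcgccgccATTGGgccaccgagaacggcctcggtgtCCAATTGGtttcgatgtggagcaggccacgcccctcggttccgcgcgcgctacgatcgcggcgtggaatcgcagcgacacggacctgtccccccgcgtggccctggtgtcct
Thrsp: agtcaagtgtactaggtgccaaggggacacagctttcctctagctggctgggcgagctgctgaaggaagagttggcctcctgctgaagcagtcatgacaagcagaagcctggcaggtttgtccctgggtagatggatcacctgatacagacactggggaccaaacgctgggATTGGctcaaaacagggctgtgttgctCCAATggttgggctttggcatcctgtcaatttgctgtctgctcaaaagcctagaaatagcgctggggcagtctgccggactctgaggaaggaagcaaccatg
Me1: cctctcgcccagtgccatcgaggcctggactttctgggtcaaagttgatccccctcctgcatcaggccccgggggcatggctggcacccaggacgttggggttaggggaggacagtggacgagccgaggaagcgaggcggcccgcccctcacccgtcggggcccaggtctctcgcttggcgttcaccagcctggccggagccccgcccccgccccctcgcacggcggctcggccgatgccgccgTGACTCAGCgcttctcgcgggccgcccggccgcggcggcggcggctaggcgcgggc
A search on both strands covered 13 RefSeq promoters of 9 of the 10 genes, all but Scd1. CCAAT, the box bound by the factor NF-Y, was found in 8 of the 13 promoters, of 7 genes, and in 37.4% of 32851 promoters of the same length. The 7 genes were Thrsp, Me1, Srebf1, Acly, Fasn, Pnpla3 and Gpam. Me1 has the box at -208 of its other promoter (chr9:86687228-86687527), which is not shown, so the box does not set Me1 apart from the genes that fell. In Fasn it starts at positions -90, -62 and -59 from the transcript start, where the last 2 share bases, and in Thrsp at -79 and -52. GGGCGG, the GC box, was in 6 of the 13 promoters, of 5 genes, and in 35.7% of all. TGACNNNGC, the core of the antioxidant response element that NRF2 binds, was in 1 promoter, that of Me1 at -6, and in 12.4% of all. TCACNCCAC, a form of the SREBP site, was in 0 of 13 and in 1.24% of all, and the E-box CACGTG was in 0 of 13 and in 7.15% of all. No match of one motif overlapped a match of another. A match is not a measured binding site, and these letters were searched in this window alone.

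Genes with several probes were measured more than once. The 2 Fasn probes fell together: the dimmer one changed by -5.19 ± 0.33 on the log2 scale in Fah-/- p53-/- livers with no NTBC, against full, and by -4.39 ± 0.33 in Fah-/- livers, more than the brighter one. All 4 Acaca probes fell in both genotypes, with log2 fold changes of -3.99 to -1.96 in Fah-/- p53-/- livers and -2.94 to -0.95 in Fah-/- livers, and the probe with the largest fall was well above background on 2 of the 4 no-NTBC arrays of each genotype. On reduced against full NTBC in Fah-/- p53-/- livers 3 of the 4 Acaca probes fell, and the fourth gave -0.10 ± 0.19 (adjusted p = 0.7). The Gpam probes disagreed. The dimmer one read 0.48 ± 0.31 higher in Fah-/- p53-/- livers (adjusted p = 0.169) and 0.58 ± 0.31 higher in Fah-/- livers (adjusted p = 0.0963) with no NTBC, against full.

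On reduced NTBC most of the 10 genes already stood lower than on the full dose in Fah-/- p53-/- livers. In Fah-/- livers fewer passed, in both directions, at a share not far from that of all genes. In Fah-/- p53-/- livers 9 of the 10 genes fell and none rose, at 39.6% of all genes passing (19.4% lower). In Fah-/- livers 4 fell, Fasn, Scd1, Srebf1 and Acly, and Me1 rose, at 39.5% of all genes passing (22.1% lower, 17.5% higher). The median log2 fold change of the 10 genes was -0.95 in Fah-/- p53-/- livers and -0.36 in Fah-/- livers, beside 0.02 and -0.03 over all genes. Samples of the doses were separate for 6 of the 10 genes in Fah-/- p53-/- livers and for 5 in Fah-/- livers, against 39.0% and 44.2% of all genes. In the fit that asks for a change beyond 2-fold, 3 of the 9 falls in Fah-/- p53-/- livers passed and 0 of the 5 changes in Fah-/- livers did. Over all genes 1.25% passed that fit in Fah-/- p53-/- livers and 1.9% in Fah-/- livers.

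Srebf1 read 5.81, 5.36, 5.59 and 5.67 in Fah-/- p53-/- livers and 5.10, 5.75, 5.47 and 5.27 in Fah-/- livers on reduced NTBC. These lie between the levels of the no-NTBC and full-dose groups, apart from 1 full-dose Fah-/- p53-/- sample at 5.66. The fall was -0.75 ± 0.21 (SE), adjusted p = 0.00717, in Fah-/- p53-/- livers and -0.94 ± 0.21 (SE), adjusted p = 0.00129, in Fah-/- livers. The Srebf1 call in Fah-/- p53-/- livers was lost with normexp background correction (-0.21, adjusted p = 0.468), with quantile normalization (-0.37, adjusted p = 0.163), in the deposited values (-0.39, adjusted p = 0.127) and beyond 2-fold.

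Thrsp read 4.55, -0.19, 1.10 and 0.77 on reduced NTBC in Fah-/- p53-/- livers and 3.17, 4.96, 3.93 and 3.97 in Fah-/- livers. Replicate 1 of the p53-/- samples lay near the full-dose level and far above its other 3. The fall was -4.32 ± 0.90 (SE), adjusted p = 0.000562, in Fah-/- p53-/- livers, rank 3 among the falls of all genes, and the difference of -1.54 ± 0.90 (SE), adjusted p = 0.182, in Fah-/- livers did not pass.

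Acly read 1.57, 1.01, 1.30 and 0.68 in Fah-/- p53-/- livers and 1.81, 2.04, 1.72 and 1.42 in Fah-/- livers on reduced NTBC, all below every full-dose sample of the same genotype. The fall was -1.68 ± 0.19 (SE), adjusted p = 5.50e-07, in Fah-/- p53-/- livers and -0.60 ± 0.19 (SE), adjusted p = 0.0141, in Fah-/- livers. The Fah-/- call did not pass without Fah-/- reduced replicate 4 (adjusted p = 0.0545) or without Fah-/- full replicate 1.

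Acaca read 0.14, -0.21, -0.21 and -0.40 in Fah-/- p53-/- livers and 0.48, 0.38, 0.14 and 0.03 in Fah-/- livers on reduced NTBC. It fell in Fah-/- p53-/- livers (-0.76 ± 0.15 (SE), adjusted p = 0.000286), with separate samples. In Fah-/- livers the samples overlapped, and the difference was 0.18 ± 0.15 (SE), adjusted p = 0.37, with a 95% interval of -0.13 to 0.48.

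Fasn read 6.23, 4.84, 5.35 and 5.21 in Fah-/- p53-/- livers and 5.89, 5.87, 5.82 and 5.39 in Fah-/- livers on reduced NTBC. Both sets lay below all full-dose samples of their genotype, with falls of -2.16 ± 0.30 (SE), adjusted p = 6.11e-06, in Fah-/- p53-/- livers and -1.13 ± 0.30 (SE), adjusted p = 0.00397, in Fah-/- livers. Scd1 read 4.75, 4.38, 4.90 and 3.17 in Fah-/- p53-/- livers and 4.90, 5.31, 5.29 and 4.69 in Fah-/- livers, again below the full dose in every sample, with falls of -2.94 ± 0.49 (SE), adjusted p = 5.55e-05, in Fah-/- p53-/- livers and -1.77 ± 0.49 (SE), adjusted p = 0.00579, in Fah-/- livers.

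Elovl6, Gpam and Pnpla3 passed in Fah-/- p53-/- livers alone, with log2 fold changes of -0.92 ± 0.24 (adjusted p = 0.0039), -0.56 ± 0.18 (adjusted p = 0.0187) and -0.97 ± 0.32 (adjusted p = 0.0204), against 0.02 ± 0.24, 0.09 ± 0.18 and -0.12 ± 0.32 in Fah-/- livers. The difference between genotypes itself passed for none of these 3 (adjusted p = 0.0785, 0.114 and 0.249). The Gpam call in Fah-/- p53-/- livers was lost under 9 alternatives, quantile normalization and 3 single left-out samples among them. The Elovl6 call was lost with normexp (-0.23, adjusted p = 0.427), and the Pnpla3 call without replicate 3 (-0.66, adjusted p = 0.104) or replicate 4 of the full-dose Fah-/- p53-/- group.

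Me1 read 3.53, 2.76, 3.09 and 3.25 in Fah-/- p53-/- livers and 3.85, 3.86, 3.81 and 3.41 in Fah-/- livers on reduced NTBC. In Fah-/- livers every sample exceeded the full dose, and the rise of 1.22 ± 0.23 (SE), adjusted p = 0.000175, was the largest of Me1 in the study, 2.33 times. In Fah-/- p53-/- livers samples of the doses overlapped, and the difference was 0.38 ± 0.23 (SE), adjusted p = 0.183.

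At the step from reduced to no NTBC most of the 10 genes fell in both genotypes. In Fah-/- p53-/- livers 7 of the 10 genes fell and none rose (61.1% of all genes passing, 37.9% lower and 23.1% higher), and in Fah-/- livers 9 fell and none rose (64.2% passing, 38.5% lower and 25.6% higher). The largest falls were those of Scd1, -2.44 ± 0.49 (SE), adjusted p = 0.000153, in Fah-/- p53-/- livers and -3.77 ± 0.49 (SE), adjusted p = 6.14e-07, in Fah-/- livers, and of Thrsp, -2.77 ± 0.90 (SE), adjusted p = 0.0104, in Fah-/- p53-/- livers and -3.97 ± 0.90 (SE), adjusted p = 0.000531, in Fah-/- livers. The Thrsp fall in Fah-/- p53-/- livers did not pass without replicate 1 of the no-NTBC group (-1.70, adjusted p = 0.0657) or without replicate 1 of the reduced group (-1.77, adjusted p = 0.0703). Me1 fell in Fah-/- livers (-0.71 ± 0.23 (SE), adjusted p = 0.00876), so that its level there was highest on the reduced dose. With sex as a term 3 of the 7 falls in Fah-/- p53-/- livers passed, where 43.3% of all genes did, against 61.1% without that term. The falls of Fasn (-0.45, adjusted p = 0.465), Scd1 (-0.98, adjusted p = 0.316), Elovl6 (-0.47, adjusted p = 0.389) and Thrsp (-1.31, adjusted p = 0.511) did not pass in that fit.

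Acaca, Elovl6 and Gpam in Fah-/- livers fell at this step and not at the one before it. For Acaca the log2 fold change of no against reduced NTBC was -1.86 ± 0.15 (SE), adjusted p = 5.01e-10, for Elovl6 -1.30 ± 0.24 (SE), adjusted p = 6.19e-05, and for Gpam -0.97 ± 0.18 (SE), adjusted p = 8.07e-05. Samples of both doses were separate for all 3. The dimmer Gpam probe gave 0.65 ± 0.31 (adjusted p = 0.0672), and the Gpam call was lost with the mean of its probes (-0.16, adjusted p = 0.547) and in the deposited values (-0.39, adjusted p = 0.0691). Acly, Fasn, Scd1 and Srebf1 passed at both steps in both genotypes in the fit without a term for sex, with the losses given above.

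On full NTBC, 2 of the 10 genes rose in Fah-/- p53-/- livers against Fah-/- livers and none fell, where 13.9% of all genes passed (6.06% higher, 7.83% lower). Pnpla3 read -3.12, -3.18, -1.67 and -2.37 in Fah-/- p53-/- livers and -4.63, -4.63, -3.19 and -4.09 in Fah-/- livers, with no overlap, a rise of 1.55 ± 0.32 (SE), adjusted p = 0.00207. Since 3 of those 4 Fah-/- readings were not well above background, its size is uncertain, and in the authors' deposited values, fitted the same way, it was 0.47 (adjusted p = 0.00568). It did not pass with normexp background correction (0.91, adjusted p = 0.063) or in the fit to these groups alone (adjusted p = 0.0526). Acaca read 0.33, 0.59, 0.75 and 0.70 in Fah-/- p53-/- livers and 0.30, -0.17, 0.21 and -0.03 in Fah-/- livers, a rise of 0.51 ± 0.15 (SE), adjusted p = 0.0221, which did not pass when any of 4 particular samples was left out. All 10 differences were above 0, with a median of 0.44 beside 0.00 over all genes, but with normexp 5 of the 10 were, and 8 without Fah-/- full replicate 2 or without Fah-/- p53-/- full replicate 3.

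On the reduced dose 8 of the 10 differences lay below 0. Acly and Gpam were lower in Fah-/- p53-/- livers than in Fah-/- livers, with log2 fold changes of -0.61 ± 0.19 (SE), adjusted p = 0.0301, and -0.59 ± 0.18 (SE), adjusted p = 0.031, where 15.8% of all genes passed (6.27% lower, 9.52% higher). Samples of the genotypes overlapped for both genes. The 2 calls were lost under 9 and 11 alternatives, among them quantile normalization and the fit to these groups alone. Thrsp showed the largest difference, -2.45 ± 0.90 (SE), adjusted p = 0.0655, which did not pass, and did so without Fah-/- p53-/- replicate 1 (-3.45, adjusted p = 0.00687). The median of the 10 differences was -0.50, beside 0.03 over all genes.

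The response to reduced NTBC differed between genotypes for 2 of the 10 genes, tested as the difference of the 2 log2 fold changes. The Acly fall was the larger one in Fah-/- p53-/- livers, with a difference of -1.08 ± 0.27 (SE), adjusted p = 0.0127, and Acaca, lower in Fah-/- p53-/- livers and 0.18 in Fah-/- livers, differed by -0.94 ± 0.21 (SE), adjusted p = 0.0065. Over all genes 10.2% passed this test (3.64% lower, 6.52% higher). Neither call passed with normexp background correction or beyond 2-fold. Of the 4 Acaca probes 3 passed, and the fourth gave -0.18 ± 0.27 (adjusted p = 0.72). Fasn (-1.03 ± 0.42 (SE), adjusted p = 0.121), Elovl6 (-0.94 ± 0.34 (SE), adjusted p = 0.0785) and Thrsp (-2.78 ± 1.27 (SE), adjusted p = 0.168) did not pass, and all 3 passed without Fah-/- p53-/- reduced replicate 1, whose levels were the highest of its group for these genes. Srebf1 differed by 0.18, with a 95% interval of -0.44 to 0.81. The median of the 10 differences was -0.94, beside 0.03 over all genes. These comparisons share their samples with those above.

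**Figure D3:**
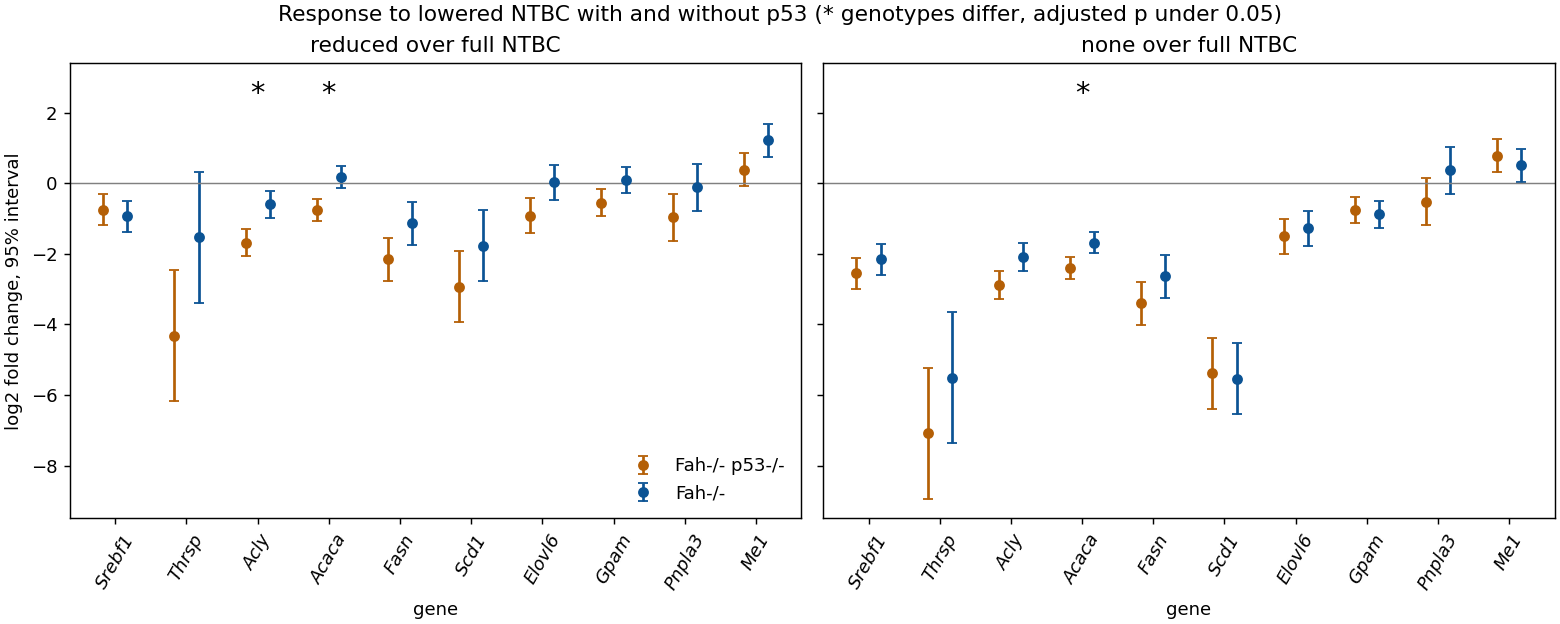
Log2 fold change and 95% interval of each gene at reduced (left) and no NTBC (right), over full NTBC, in Fah-/- p53-/- (orange) and Fah-/- livers (blue), with an asterisk where the genotypes differed. At reduced NTBC 9 of the 10 orange points lie below the blue ones, and the asterisks stand over Acly and Acaca.

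The response to no NTBC differed for Acaca alone, by -0.72 ± 0.21 (SE), adjusted p = 0.033, where 9.16% of all genes passed (4.13% lower). This call was lost under 13 alternatives, and 2 of the 4 Acaca probes did not pass (-0.43 ± 0.27, adjusted p = 0.353, and -1.05 ± 0.35, adjusted p = 0.0608). Acly missed the threshold (-0.79 ± 0.27 (SE), adjusted p = 0.0656) and passed under 7 alternatives. Scd1 differed by 0.16, with a 95% interval of -1.27 to 1.58, and Srebf1 by -0.40, with an interval of -1.02 to 0.22.

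With no NTBC few differences between the genotypes passed. The Fah-/- p53-/- samples were female and the Fah-/- samples male, so p53 loss and sex cannot be told apart here. For Fah-/- p53-/- against Fah-/- livers, limma called 0 of the 10 genes, where 14.0% of all genes passed (7.53% higher, 6.47% lower). At an unadjusted p under 0.05 there was 1, Me1, and none of the other settings tried called any. With sex as a term the Scd1 difference was 2.03 ± 0.78 (adjusted p = 0.217), against 0.57 ± 0.49 without it, and that of Fasn 0.72 ± 0.48 (adjusted p = 0.571), against -0.07 ± 0.30. For Fah-/- p53-/- against Fah-/- p21-/- livers, 0 were called (11.0% of all genes, 4.96% higher and 6.03% lower) and 0 had an unadjusted p under 0.05. The widest 95% intervals were those of Thrsp, -3.10 to 0.61 for Fah-/- p53-/- against Fah-/- livers and -1.09 to 2.61 for Fah-/- p53-/- against Fah-/- p21-/- livers.

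Loss of p21 with no NTBC raised Me1. It read 3.95, 3.98, 3.87 and 4.18 in Fah-/- p21-/- livers, against 2.83, 3.11, 3.38 and 2.75 in Fah-/- livers, with no overlap. The rise was 0.97 ± 0.23 (SE), adjusted p = 0.0103, where 7.37% of all genes passed (4.01% higher, 3.36% lower). The value was 0.96 within the slide that held both genotypes (adjusted p = 0.2, 2 samples each), 0.87 with slide as a fixed block (adjusted p = 0.175) and 1.0 in male samples alone (adjusted p = 0.0411). The call was lost with sex as a term (adjusted p = 0.0578), without both female p21-/- samples (adjusted p = 0.0588) and with normexp (0.91, adjusted p = 0.0768). The female and male p21-/- samples lay on different slides, so leaving out the females or adjusting for sex changes slide as well. The Thrsp log2 fold change was -2.01 ± 0.90 and did not pass (adjusted p = 0.179). In the slides that held 2 genotypes, 0 of the 10 genes passed for p53 loss, for p21 loss, or between them, where 2.57%, 1.01% and 2.51% of all genes passed.

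The order of group means placed Fah-/- p53-/- livers on full NTBC highest for 8 genes, all but Gpam and Me1, though for 7 of them their samples overlapped those of the next group. The exception was Elovl6, where the next group was Fah-/- livers on reduced NTBC. Its samples still overlapped those of Fah-/- livers on full NTBC (minimum 3.103, against a maximum of 3.109). The 3 no-NTBC groups took the 3 lowest places for Acly, Acaca, Fasn, Scd1, Elovl6, Thrsp, Srebf1 and Gpam, and neighbours among them overlapped for each of these genes. For Me1 the order began with Fah-/- p21-/- livers with no NTBC (3.99 ± 0.13 SD) and Fah-/- livers on reduced NTBC (3.73 ± 0.22 SD), and ended with Fah-/- livers on full NTBC (2.51 ± 0.40 SD, n = 4 each).

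Over the 28 arrays, 8 of the 10 genes followed each other. The Pearson correlation of a gene with the mean of the other 9 was 0.85 to 0.98 for these 8, -0.51 for Me1 and 0.02 for Pnpla3. Arrays share doses and groups, so this is a description of the groups' differences. After subtraction of each group's mean, Fasn (0.91), Elovl6 (0.83) and Acaca (0.75) still followed the other genes from sample to sample, Acly (0.35), Pnpla3 (0.31) and Me1 (0.22) less so. Fasn and Elovl6 had the highest within-group correlation of any pair, 0.87.

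The 10 other genes whose levels followed the mean of these genes most closely were an unnamed feature, Ptgr2, Ebp, Stap2, Cyp2r1, Cbr4, Cnpy2, Pmvk, Pcyt2 and Mrpl23, with correlations of 0.96 to 0.97 over 28 arrays. Ebp and Pmvk are enzymes of cholesterol synthesis and Pcyt2 an enzyme of phospholipid synthesis. The 5 that ran most opposite were Isyna1, Mtmr2, Grip1, Rbm38 and Prune1, with correlations of -0.96 to -0.95. Correlations beyond 0.9 were common, at 987 genes above it and 471 below -0.9 of 20289.

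Other genes of lipogenesis moved in both directions without NTBC. Of 21 measured regulators, 12 fell and 1 rose in Fah-/- p53-/- livers, and 12 fell and 1 rose in Fah-/- livers. The background for this and the lists below was 40.0% lower and 29.6% higher over all genes in Fah-/- p53-/- livers. In Fah-/- livers it was 41.7% lower and 29.0% higher. Insig1, which retains SREBP in the endoplasmic reticulum and is itself an SREBP target, fell by most among those named here, -4.15 ± 0.22 in Fah-/- p53-/- livers and -3.16 ± 0.22 in Fah-/- livers. Nr1h3, the nuclear receptor LXRα that raises Srebf1, fell (-1.90 ± 0.14 in Fah-/- p53-/- livers and -1.46 ± 0.14 in Fah-/- livers). So did its partner Rxra (-1.61 ± 0.10 and -1.60 ± 0.10, in the same order of genotypes) and Insr, the insulin receptor (-1.85 ± 0.17 and -1.87 ± 0.17). The median over the regulators was -0.54 in Fah-/- p53-/- livers and -0.71 in Fah-/- livers.

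Of 10 LXR target genes 3 rose and 5 fell with no NTBC in each genotype. Of 14 genes that respond to fasting 4 rose and 6 fell in Fah-/- p53-/- livers, and 4 rose and 7 fell in Fah-/- livers. Over all genes 29.6% rose and 40.0% fell in Fah-/- p53-/- livers, and 29.0% rose and 41.7% fell in Fah-/- livers. The counts of both lists lie near that background.

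Of 10 genes of glucose entry and of the ChREBP response, 8 fell and 1 rose in Fah-/- p53-/- livers, and 9 fell and none rose in Fah-/- livers. Gckr, the glucokinase regulator, fell by most among those named here, -5.16 ± 0.39 in Fah-/- p53-/- livers and -4.90 ± 0.39 in Fah-/- livers. Khk, ketohexokinase, changed by -3.50 ± 0.34 in Fah-/- p53-/- livers and -3.31 ± 0.34 in Fah-/- livers. On reduced NTBC 7 of the 10 fell in Fah-/- p53-/- livers and 5 in Fah-/- livers, where 19.4% and 22.1% of all genes fell. Among them was Pklr, the liver pyruvate kinase (-1.45 ± 0.32 in Fah-/- p53-/- livers and -0.83 ± 0.32 in Fah-/- livers).

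Of 24 other enzymes of synthesis, elongation and desaturation, 14 fell and 7 rose in Fah-/- p53-/- livers with no NTBC, and 14 fell and 6 rose in Fah-/- livers. Fads1, the delta-5 desaturase, fell (-2.80 ± 0.22 in Fah-/- p53-/- livers and -3.15 ± 0.22 in Fah-/- livers), as did Tecr, the reductase that ends each elongation cycle (-2.21 ± 0.17 and -2.21 ± 0.17, in the same order). Elovl7, an elongase of long saturated chains, rose by 7.05 ± 0.61 in Fah-/- p53-/- livers and 8.03 ± 0.61 in Fah-/- livers, though on full NTBC its probe was well above background on 3 of 4 Fah-/- p53-/- and 2 of 4 Fah-/- arrays. Elovl3, another elongase, differed between genotypes on full NTBC, -7.79 ± 0.89 in Fah-/- p53-/- over Fah-/- livers (well above background on 3 and 4 of 4 arrays), while Scd2, a desaturase relative of Scd1, was higher there by 3.48 ± 0.59.

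Of 9 measured enzymes that supply NADPH, besides Me1, 3 rose and 3 fell in Fah-/- p53-/- livers with no NTBC, and 4 rose and 4 fell in Fah-/- livers. Over all genes 29.6% rose and 40.0% fell in Fah-/- p53-/- livers, and 29.0% rose and 41.7% fell in Fah-/- livers, so these counts lie near the background. G6pdx, which opens the pentose phosphate pathway, rose (3.32 ± 0.32 in Fah-/- p53-/- livers and 3.38 ± 0.32 in Fah-/- livers), as did Me2, the mitochondrial malic enzyme (1.56 ± 0.13 and 1.53 ± 0.13, in the same order). Idh1, the cytosolic isocitrate dehydrogenase, fell (-1.18 ± 0.11 in Fah-/- p53-/- livers and -0.92 ± 0.11 in Fah-/- livers). The direction of Me1 was that of G6pdx and Me2.

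Downstream of the pathway, 5 of 16 genes of triglyceride synthesis rose and 7 fell in Fah-/- p53-/- livers with no NTBC, and 5 rose and 5 fell in Fah-/- livers. Over all genes 29.6% rose and 40.0% fell in Fah-/- p53-/- livers, and 29.0% rose and 41.7% fell in Fah-/- livers, so these counts lie near the background. Dgat2, which completes the triglyceride, fell (-1.26 ± 0.13 in Fah-/- p53-/- livers and -1.03 ± 0.13 in Fah-/- livers), and Mogat2, a monoacylglycerol acyltransferase, rose (5.04 ± 0.32 in Fah-/- p53-/- livers and 4.82 ± 0.32 in Fah-/- livers). Of 17 lipid droplet and lipolysis genes, 9 rose and 4 fell in Fah-/- p53-/- livers, and 5 rose and 8 fell in Fah-/- livers. The difference between genotypes in this response passed for 6 of the 17, all 6 higher with p53 loss (5.02% of all genes were called higher). Among them were the droplet proteins Cidec (1.97 ± 0.36), Plin4 (2.58 ± 0.43) and Plin5 (1.87 ± 0.25), and G0s2, an inhibitor of lipolysis (1.94 ± 0.43). The no-NTBC samples behind these differences were female in the Fah-/- p53-/- group and male in the Fah-/- group, so genotype and sex cannot be told apart in them.

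**Figure D4:**
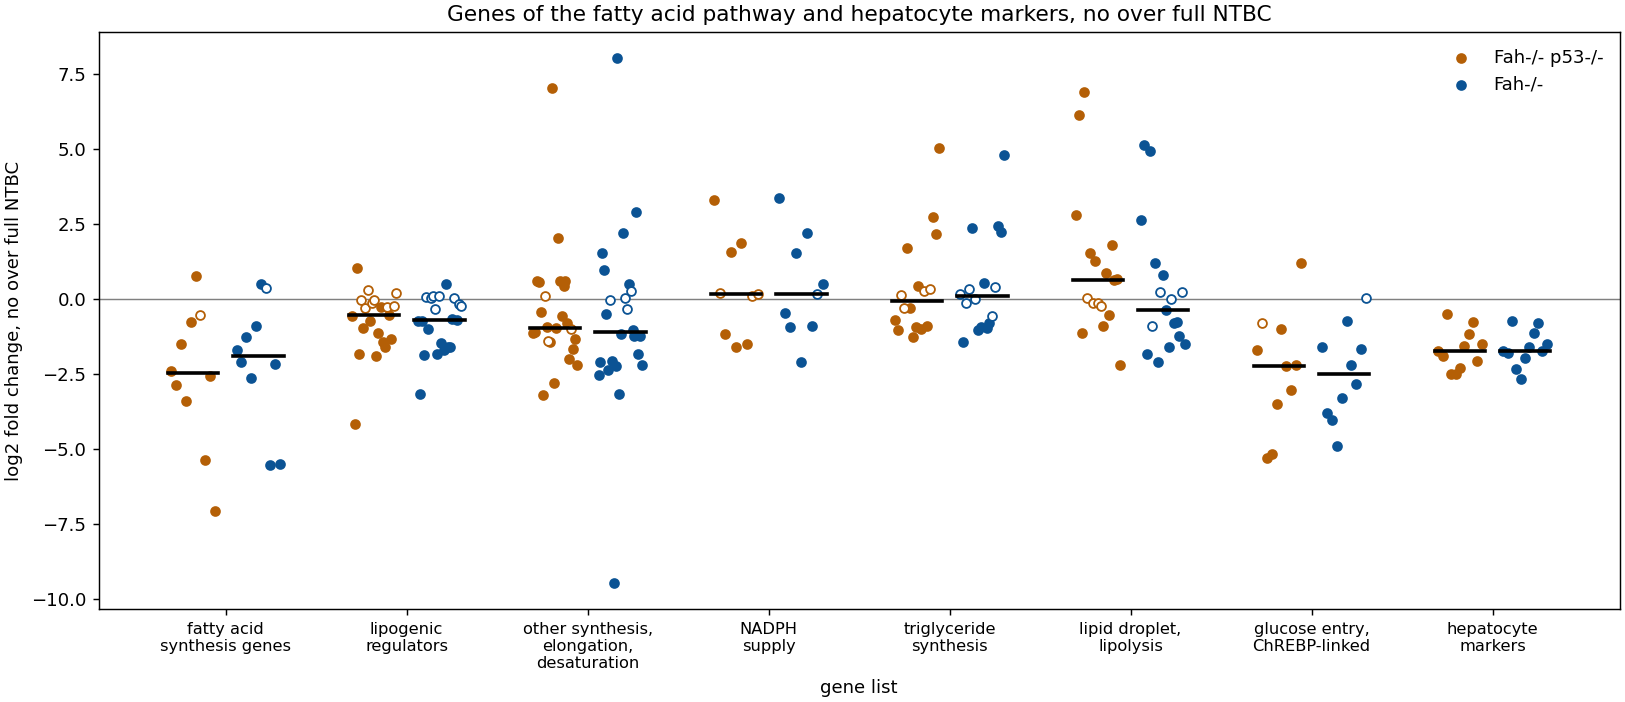
Log2 fold change of every measured gene of 8 lists at no over full NTBC in Fah-/- p53-/- (orange) and Fah-/- livers (blue). Filled points passed the test, open points did not, and bars mark list medians. Hepatocyte markers lie below 0 in both genotypes with medians of -1.74 in Fah-/- p53-/- and -1.72 in Fah-/- livers, while NADPH, triglyceride and droplet genes lie on both sides of 0.

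Hepatocytes are the main site of this pathway in liver, and hepatocyte markers fell with no NTBC, as did 8 of the 10 genes. Me1 rose and Pnpla3 did not pass. All 11 measured markers fell with no NTBC in Fah-/- p53-/- and in Fah-/- livers. On reduced NTBC 8 and 9 of them fell, where 19.4% and 22.1% of all genes fell. Their summed linear level, in units of the array's 75th percentile, was 1464 to 1595 in Fah-/- p53-/- and 1462 to 1870 in Fah-/- livers with no NTBC. It was 4970 to 5695 in Fah-/- p53-/- and 4653 to 5590 in Fah-/- livers on full NTBC. In bulk samples fewer hepatocytes and less RNA per hepatocyte cannot be told apart. Among the named markers Alb, albumin, changed by -1.91 ± 0.10 in Fah-/- p53-/- livers and -1.81 ± 0.10 in Fah-/- livers, and Apoa2 by -2.51 ± 0.15 and -2.33 ± 0.15, in the same order. Scd1 and Thrsp fell by more than every hepatocyte marker measured, in both genotypes, and Elovl6 and Gpam by less than the median marker. The part of hepatocyte number in the falls was not tested.

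Some markers of other cells rose. Of 8 macrophage markers 5 rose and none fell in Fah-/- p53-/- livers with no NTBC (summed level 57.8 to 81.7, against 20.2 to 35.6 on full NTBC), and 8 rose in Fah-/- livers (32.8 to 225, against 19.0 to 33.9). Of 5 bile duct markers 3 rose in Fah-/- p53-/- livers (5.75 to 21, against 4.52 to 8.13) and 4 in Fah-/- livers (7.59 to 18.6, against 4.31 to 6.90), and of 8 stellate and fibroblast markers 3 rose in each genotype (95.1 to 151.6, against 72.8 to 99.7, in Fah-/- p53-/- livers, and 78.9 to 129, against 68.0 to 78.1, in Fah-/- livers). Over all genes 29.6% rose and 40.0% fell in Fah-/- p53-/- livers, and 29.0% rose and 41.7% fell in Fah-/- livers. The stellate and fibroblast counts lie near that background. Of 7 endothelial markers 1 rose and 2 fell in Fah-/- p53-/- livers, and 4 rose and 1 fell in Fah-/- livers. Of 6 adipocyte markers 3 rose and 1 fell in Fah-/- p53-/- livers, and 3 rose and 3 fell in Fah-/- livers. Their summed level was 170 to 194 in Fah-/- p53-/- livers with no NTBC, against 3.22 to 7.34 on full NTBC, and 82.3 to 121 in Fah-/- livers with no NTBC, against 6.91 to 11.8. Cidec, which is also a droplet protein of fatty liver, was one of those that rose. Adipoq and Plin1 were well above background on no Fah-/- p53-/- array on full NTBC, and Plin1 on no Fah-/- array on full NTBC. Cfd, of the same list, was the other way: it was well above background on no Fah-/- p53-/- and no Fah-/- array with no NTBC. The part of other cells in the results on the 10 genes was not tested.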

How the data were processed

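Liver RNA of 28 samples in 7 groups of 4 was hybridised to Agilent 1-colour arrays, 1 sample per array. The deposited processed intensity was background-subtracted and detrended within the array by Agilent Feature Extraction 10.7.3.1, per the file headers (10.5, per the submitters' processing notes). The headers name build mm9. The well above background, saturation and outlier marks are other 0 or 1 values of the same software, per the file headers. The deposited value table holds log2 values that the authors normalized by a method not given in the sources used here, and its centring is unknown. Its column medians were 6.89 to 6.91, and it served as an alternative.

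Control spots (1639) were left out and spots of a probe averaged. Levels are log2(intensity) minus the log2 75th percentile of the array. A probe was kept where the software marked it well above background throughout 1 or more groups (27509 of 41174). Probes were named through RefSeq accessions (28474 with a symbol, 12700 without), and the brightest kept probe stood for each gene (20299 genes). limma 3.58.1 (R 4.3.3) was fitted over all 28 arrays and 7 groups for 13 comparisons, with Benjamini-Hochberg adjustment over all 20299 genes and a threshold of 0.05. Precision is limited by the number of arrays. The code was tested on simulated data.

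The 10 genes and all gene lists were chosen with earlier results of these data known. Of each other list, up to 4 genes past the threshold with the smallest adjusted p in a comparison are named. The 10 genes named as most similar and the 5 as most opposite were ranked by Pearson correlation with the mean of the 10, each centred on its own mean. Alternatives covered background correction, scaling, the filter, the choice of probe, the samples fitted, blocks for slide and replicate number, sex, a 2-fold minimum and each array left out. Promoter sequences are from RefSeq, build GRCm38.p6.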

Additional observations from a re-analysis of the deposited data

Results flagged for a closer look

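Of 70 sets of 4 samples (10 genes in 7 groups), 3 held a sample far from its others by Dixon's test at the 95% level, where chance gives about 1 in 20. Fasn read 5.39 in Fah-/- reduced replicate 4, the lowest of its group, and Me1 read 3.41 in the same sample, again the lowest. Thrsp read -4.41 in Fah-/- p53-/- replicate 1 with no NTBC, a sample that lay far from its group over all genes.

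The response to NTBC differed between Fah-/- p53-/- and Fah-/- livers in 3 tests of the difference itself. On reduced NTBC the log2 fold change over full NTBC was lower in Fah-/- p53-/- livers, with a difference of -1.08 for Acly and -0.94 for Acaca. With no NTBC the difference was -0.72 for Acaca. Over all genes 10.2% passed the test for reduced NTBC and 9.16% that for no NTBC. None of the 3 calls passed with normexp background correction. Genotype cannot be told apart from slide in these tests, nor from sex in the one for no NTBC.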

How the results depend on the processing

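No call reversed under any alternative run, though differences that did not pass changed sign under some. Calls were lost or gained 84 times over the 6 comparisons of doses and 72 times over the 7 of genotypes. Of the 10 genes, normexp background correction called 0 for p53 loss on full and on reduced NTBC, for p21 loss and for both differences in response, where it called 9.35%, 1.11%, 0.906%, 0.355% and 1.2% of all genes. Quantile normalization called 0 for p53 loss on reduced NTBC and 2 for the difference in response to no NTBC. The deposited values gave 2 for that difference, no filter on dim probes 0, and the fit without the 3 farthest arrays 2. With the replicate block it was also 2, from 1 without the block. Same-numbered samples correlated at -0.227 to 0.357 (84 pairs), so the numbers were not taken as pairs. A filter over all 28 arrays called 1 for p53 loss on full NTBC, and the mean of a gene's probes 1 for p53 loss on reduced NTBC. The fit to the groups alone called 1 for p53 loss on full NTBC, 0 on reduced NTBC and 0 for the difference in response to no NTBC. For p21 loss, slide as a fixed block, the shared slide alone, sex as a term and leaving out both female p21-/- samples each called 0. Sex as a term called 3 for no against reduced NTBC in Fah-/- p53-/- livers and 0 for the difference in response to no NTBC. Over all genes it called 43.3% and 2.91% for these. A 2-fold minimum called 3 in Fah-/- p53-/- livers for reduced against full and 3 for no against reduced NTBC, and 0 and 3 for these in Fah-/- livers. Over all genes it called 1.25% and 11% in Fah-/- p53-/- livers and 1.9% and 10.4% in Fah-/- livers. It called 0 for p53 loss on full and reduced NTBC, for p21 loss and for the differences in response to reduced and to no NTBC. Over all genes these shares were 0.783%, 0.227%, 0.0493%, 0.192% and 0.374%. The causes were not tested.

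With 1 array left out at a time, the calls for reduced against full NTBC were 7 to 9 in Fah-/- p53-/- and 4 to 5 in Fah-/- livers, for no against full 9 to 9 and 8 to 9, and for no against reduced 5 to 7 and 9 to 9. They were 1 to 2 for p53 loss on full, 0 to 4 on reduced and 0 to 0 on no NTBC, 1 to 1 for p21 loss, 0 to 0 between p53 and p21 loss, 2 to 5 for the difference in response to reduced NTBC and 0 to 2 for that to no NTBC. Of calls in the no against full comparison, 42.5% over all genes were higher in Fah-/- p53-/- and 41.0% in Fah-/- livers, against 31.0% and 30.0% with normexp and 50.6% and 50.3% with quantile normalization. The median change over all genes was -0.42 in Fah-/- p53-/- and -0.41 in Fah-/- livers with normexp, and 0.02 and 0.01 with quantile normalization.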
